A study of Mus musculus with 24 samples.

Results

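Withdrawal of dihydrotestosterone (DHT), a potent androgen, was examined in mouse prostate organoids labelled homozygous knockout (KO, Brca1-/-) for Brca1. Libraries were chosen by their titles, with 3 libraries of KO-labelled organoids grown without DHT set against 3 grown with it, and these are 6 of the 24 libraries in the series. All organoids came from anterior prostate lobes of 3-month-old mice. Dissociated cells were embedded in Matrigel and fed a medium with EGF, Noggin, R-Spondin and small-molecule inhibitors, which all groups shared. The series addresses how loss of 1 or both copies of Brca1 bears on the response to androgen deprivation, and wild-type (WT) and heterozygous (HET) organoids, 3 libraries with and 3 without DHT for each, serve here as the reference response. The labels give neither the deleted part of Brca1, nor what drove the deletion, nor the dose of DHT and the time without it. They also do not say whether replicates came from separate animals or cultures. The p-values therefore reflect no more than the variation among these libraries, which may be technical.

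Steroid hormones act through nuclear receptors, which move to DNA when they bind their hormone and raise or lower transcription of target genes. In prostate epithelium androgens maintain the luminal secretory state, and their removal lowers secretory products and known targets such as Fkbp5. Androgens and glucocorticoids act through much the same DNA element, so several genes answer to both hormones.

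The 6 libraries held 25233980 to 47622489 estimated reads. KO minus DHT replicate 1 stood apart. It had the fewest reads, and genes of the mitochondrial genome took 10.0% of its reads against 2.61% to 4.75% in the other 5. Epithelial keratins were abundant in every library, with 691 to 1079 CPM (reads scaled to the size of each library) of the luminal keratin Krt8 and 1515 to 2405 CPM of the basal keratin Krt5. Markers of other cells differed in level. The endothelial genes Cdh5, Emcn and Cldn5 and the leukocyte genes Adgre1, Cd3g and Lyz2 were at 0 in all 6 libraries. The pan-leukocyte gene Ptprc averaged 0.167 CPM, and 12 stromal markers summed to 24.5 to 44.1 CPM, most of it Dcn. The highest endothelial, leukocyte and neuroendocrine markers were Pecam1, Cd68 and Ncam1, with means of 2.96, 49.9 and 9.62 CPM. Among urothelial markers, Upk1b averaged 14.7 CPM with DHT and 9.39 CPM without. Upk3a averaged 3 CPM with DHT and 5.95 CPM without, and neither urothelial gene was called.

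Brca1, a tumour suppressor of homologous recombination, was still counted in organoids labelled KO. It stood at 11.8, 9.64 and 11.2 CPM in the 3 libraries with DHT and at 13.1, 10.9 and 10.3 CPM in the 3 without. The WT libraries held 11.2 to 14.3 CPM and the HET-labelled libraries 14.7 to 20.3 CPM. A transcript that lacks some exons can still be counted, so the RNA level checks the labels only in part, and every direction below rests on the label KO. Brca1 did not pass the test of withdrawal in KO-labelled organoids (log2 change 0.07, SE 0.128, edgeR adjusted p = 1).

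The glucocorticoid receptor gene Nr3c1 averaged 98 ± 8.05 CPM with DHT and 98.8 ± 20.1 CPM without (SD, n = 3 each). The estrogen receptor gene Esr1 was at 16.7 to 19.1 CPM with DHT and 19.9 to 24 CPM without, which did not overlap but missed the threshold (log2 0.32, SE 0.105, edgeR adjusted p = 0.327). The mineralocorticoid receptor gene Nr3c2 averaged 4.64 and 4.83 CPM, and Esr2 0.445 and 0.376 CPM, with DHT and without it. Pgr, the progesterone receptor gene, was at 0 in 4 of the 6 libraries and was too low to be tested.

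Withdrawal changed 86 of 15415 genes tested, which is 0.558%, at an adjusted p under 0.05. The test was the quasi-likelihood test of edgeR, and p was adjusted over all genes by the Benjamini-Hochberg method. At an unadjusted p under 0.05 there were 1085 genes, or 7.04%. Expression rose for 30 genes (0.195%) and fell for 56 (0.363%), and all 86 code for proteins. These 0.195% and 0.363% are the shares to set beside the counts of called list members below. For each of the 86, the 3 libraries without DHT did not overlap the 3 with it, while over all genes tested 5.62% lay wholly higher and 6.28% wholly lower without DHT. The named rises and falls below had to meet this condition, so where their groups are said not to overlap, that is a description. The median log2 change over all genes was 0.026. The number of calls moved with the fit. DESeq2 called 276 genes, a fit of the 6 KO-labelled libraries alone called 12, and leaving out KO plus DHT replicate 1, 2 or 3 or KO minus DHT replicate 2 or 3 called 47, 42, 49, 51 and 54. Without KO minus DHT replicate 1 the count was 59. All 86 genes had the same sign in each of these fits. That is no separate support, because groups that do not overlap keep their direction when a library is left out. DESeq2 and the fit of the KO-labelled libraries alone compare the same libraries again. Of the 86, 38 were called in all 6 fits that left out a library.

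**Figure D1:**
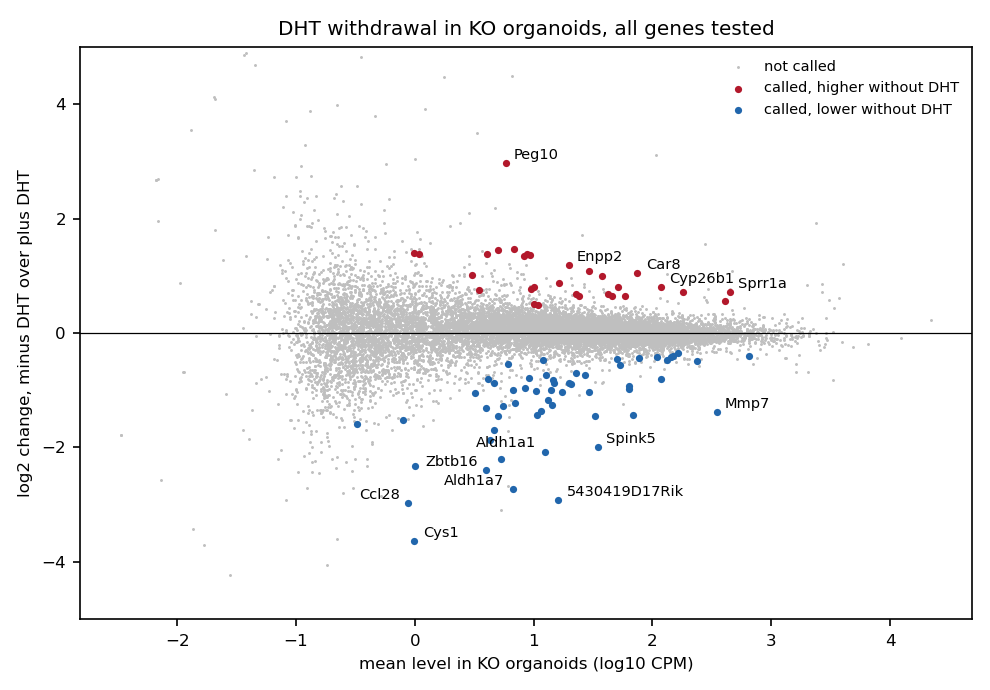
Log2 change on DHT withdrawal (minus over plus DHT) against the mean level in the 6 KO-labelled libraries (log10 CPM), 1 point per gene tested; red points are the 30 genes called higher and blue points the 56 called lower without DHT. Peg10 has the largest rise among called genes and Cys1 the largest fall, and 34 genes, none of them called, lie outside the plotted range of 5 log2 units either way.

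Known targets of both androgens and glucocorticoids fell. Fkbp5, a co-chaperone of steroid receptors, was at 46.5, 51.1 and 47.9 CPM with DHT and at 14.3, 19.4 and 19.2 CPM without. The groups did not overlap, and the level with DHT was 2.75 times that without (log2 -1.45, SE 0.147, edgeR adjusted p = 0.000107). Zbtb16, a zinc finger transcriptional repressor, went from 6.55, 7.4 and 6.08 CPM to 1.53, 1.42 and 0.909 CPM, a 5.19-fold lower mean (log2 -2.39, SE 0.225, edgeR adjusted p = 5.6e-05). Sgk1, a kinase named for its induction by glucocorticoids, changed less in relative terms, from 168, 158 and 164 CPM to 127, 121 and 118 CPM (log2 -0.42, SE 0.0697, edgeR adjusted p = 0.00709). The call for Sgk1 was lost without KO plus DHT replicate 1 (edgeR adjusted p = 0.0554). These 3 were the called members among 22 tested glucocorticoid receptor targets, whose median log2 change was -0.21 with 3 members above 0. Over all genes tested, 0.363% were called lower and 43.9% had a log2 change below 0.

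Sgk1 is shown with its sequence because it was the only one of 11005 tested genes with an annotated start window whose window held the full palindromic element of these hormones, which is AGAACA, any 3 bases and the reverse complement of AGAACA. The window runs from 250 bases before to 50 after a RefSeq start site (GRCm38.p6), the gene lies on the plus strand at chr10:21882184-21999903, and the window is 1 of 6 for Sgk1, at chr10:21993640-21993939. Capitals mark that element and AGAACA, its arm. Both were searched on both strands, and an arm may lie within the element.
Sgk1 start window: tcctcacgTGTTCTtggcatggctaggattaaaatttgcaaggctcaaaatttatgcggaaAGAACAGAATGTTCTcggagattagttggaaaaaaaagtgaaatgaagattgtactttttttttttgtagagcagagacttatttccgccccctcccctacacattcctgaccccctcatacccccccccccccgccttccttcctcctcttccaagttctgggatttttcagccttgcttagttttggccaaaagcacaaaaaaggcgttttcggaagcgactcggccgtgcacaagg
The element begins 189 bases upstream of the start site. It occurred in 3 of 32851 start windows (0.00913%), and AGAACA occurred in 6233 of them. Of the 86 called genes 59 had a window. AGAACA occurred in the windows of 7 of 40 called lower, 4 of 19 called higher and 15.7% of all tested genes with a window. A match describes letters in a window and is not a site of binding.

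In the broader list of androgen response genes few members passed the test. Of 97 tested, 6 fell and none rose, and the median log2 change was -0.003 against 0.026 for all genes. Of all genes tested 0.363% fell. In the same list, 22 members lay wholly lower and 4 wholly higher without DHT, where the shares over all genes were 6.28% and 5.62%. Besides Fkbp5, Zbtb16 and Sgk1, called members included Mertk and Iqgap2. Mertk, a receptor tyrosine kinase for Gas6, fell by 1.05 and the scaffold gene Iqgap2 by 0.88 on the log2 scale (edgeR adjusted p = 0.00709 and 0.0124). Iqgap2 lost its call in 4 of the 6 fits without a library, where its adjusted p reached 0.0988, and it overlaps F2rl2 on the other strand. Mertk lost its call without KO plus DHT replicate 2 (edgeR adjusted p = 0.0629) and, narrowly, without KO minus DHT replicate 3. With a library left out, 4 to 6 list members were called, and with DESeq2 13.

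Enzymes that make or break down androgens gave no call among 15 tested, with a median of 0.10. The members with the most counts were Hsd17b12, at 124 ± 6.34 CPM with DHT and 120 ± 12 CPM without, and Ugt1a6a, at 104 ± 4.4 and 91.5 ± 6.78 CPM (SD, n = 3 each). Of 13 tested products of prostate secretory epithelium, 2 fell, Spink5 among them, and none rose. The median of this list was -0.63, with 9 members wholly lower and 2 wholly higher without DHT, against 6.28% and 5.62% of all genes. Spink5, a secreted serine protease inhibitor, was at 51.5, 64.4 and 50 CPM with DHT and at 18.3, 15.7 and 7.94 CPM without. Its lowest library with DHT was still well above its highest without (log2 -1.99, SE 0.274, edgeR adjusted p = 0.00205).

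Mmp7, the secreted protease matrilysin, was the most abundant of the 14 named falls per unit length, with a mean of 769 TPM (a level corrected for transcript length) with DHT and 288 TPM without. Its level was 476, 495 and 531 CPM with DHT and 191, 196 and 188 CPM without, and within each group the libraries were close together. Its fall amounted to -1.39 on the log2 scale (SE 0.121, edgeR adjusted p = 4.78e-05). Mmp7 was the sole call among 23 tested matrix proteases and inhibitors, whose median was 0.07. Mmp7 lies on the plus strand at chr9:7692090-7699585, and 1 of its 2 start windows (RefSeq, GRCm38.p6, chr9:7691840-7692139) is shown as that of the most abundant named fall. Capitals mark its AGAACA, which begins 19 bases after the start site. The other window, at chr9:7692091-7692390, overlaps that match and holds a further AGAACA on the minus strand.
Mmp7 start window: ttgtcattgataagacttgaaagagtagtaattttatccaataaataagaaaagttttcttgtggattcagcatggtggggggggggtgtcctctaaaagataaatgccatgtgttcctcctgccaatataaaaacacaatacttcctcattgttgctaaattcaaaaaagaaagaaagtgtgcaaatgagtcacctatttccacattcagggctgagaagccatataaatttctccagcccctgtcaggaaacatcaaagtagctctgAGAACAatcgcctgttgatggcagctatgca

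**Figure D2:**
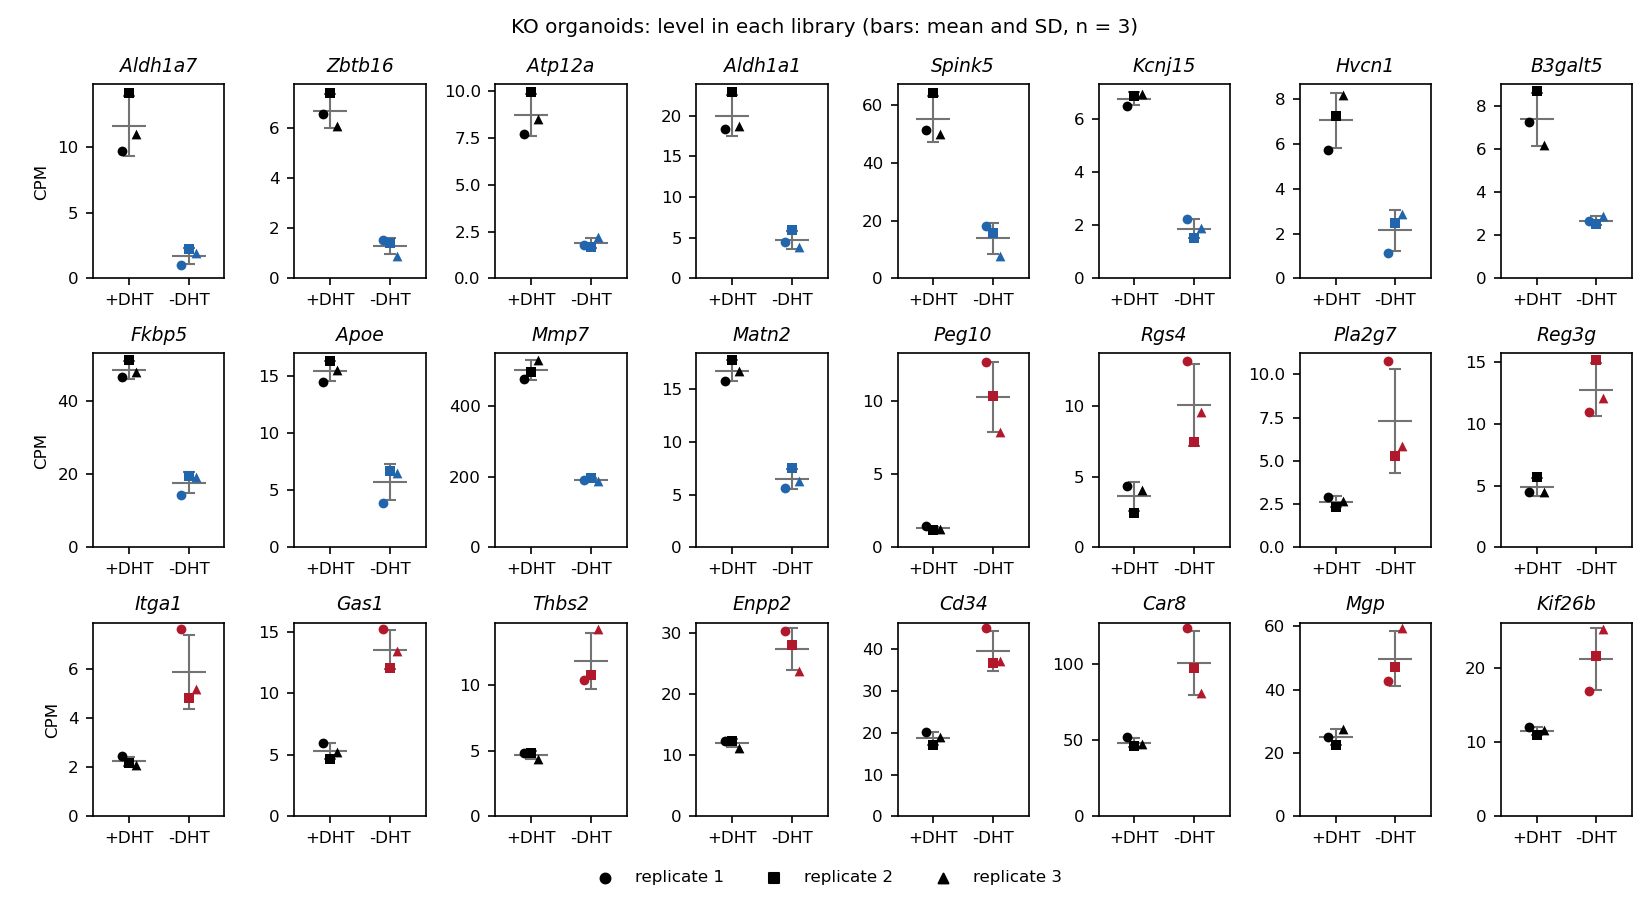
Level in CPM of 24 of the 29 named genes in each KO-labelled library with DHT (black) and without DHT (blue for falls, red for rises), with replicates 1, 2 and 3 as circles, squares and triangles and with the mean and SD of 3 libraries as bars. In every panel the 3 libraries without DHT lie wholly on 1 side of the 3 with DHT, which the rule for naming these genes required. The scale differs between panels.

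Genes of retinoic acid metabolism moved in both directions. Aldh1a1, a retinaldehyde dehydrogenase that makes retinoic acid, fell from 18.4, 22.9 and 18.7 CPM to 4.42, 5.97 and 3.85 CPM (log2 -2.07, SE 0.213, edgeR adjusted p = 0.000112). Its close paralog Aldh1a7 fell from 9.72, 14.1 and 11 CPM to 0.991, 2.21 and 1.92 CPM (log2 -2.73, SE 0.302, edgeR adjusted p = 0.000223). The pair sit near each other, at chr19:20492715-20643465 and chr19:20692953-20727562, and reads of such similar genes can be divided wrongly between them. Counted as 1 gene they held 28.1, 37 and 29.7 CPM with DHT and 5.41, 8.18 and 5.77 CPM without, a change of -2.29 on the log2 scale (SE 0.226, edgeR adjusted p = 7.75e-05). Adh1, an alcohol dehydrogenase that can oxidise retinol, fell by 1.00 on the log2 scale (edgeR adjusted p = 0.0455), a call lost in all 6 fits without a library (adjusted p up to 0.317).

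On the other side, Cyp26b1, the cytochrome P450 that breaks down retinoic acid, rose. It was at 90.5, 78.6 and 89 CPM with DHT and at 143, 140 and 166 CPM without, with no overlap (log2 0.80, SE 0.0944, edgeR adjusted p = 0.000374). Cyp26b1, Aldh1a1 and Aldh1a7 were called in all 6 fits without a library. In all, 2 of 18 tested retinoid genes rose and 2 fell, where 0.195% and 0.363% of all genes did, and their median was 0.06. The start window of Cyp26b1 is printed as that of a rise with no match. The window of Aldh1a7, a large fall, held no match either. The Cyp26b1 window comes from RefSeq (GRCm38.p6, chr6:84593761-84594060, minus strand, printed in the direction of the gene) and held no match to any of the searched motifs, so it has no capitals.
Cyp26b1 start window: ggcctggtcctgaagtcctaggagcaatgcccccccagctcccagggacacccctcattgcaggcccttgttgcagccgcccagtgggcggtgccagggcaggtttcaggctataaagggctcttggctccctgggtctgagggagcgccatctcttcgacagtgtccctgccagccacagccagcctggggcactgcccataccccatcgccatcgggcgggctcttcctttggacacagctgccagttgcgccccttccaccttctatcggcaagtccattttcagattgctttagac

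Several pumps and channels of the epithelial surface were lower without DHT. Atp12a, the catalytic subunit of the non-gastric proton-potassium pump, was at 7.72, 9.93 and 8.49 CPM with DHT and at 1.78, 1.69 and 2.19 CPM without (log2 -2.20, SE 0.235, edgeR adjusted p = 0.000167). Kcnj15, an inward rectifier potassium channel, went from 6.46, 6.86 and 6.93 CPM to 2.23, 1.5 and 1.88 CPM (log2 -1.86, SE 0.218, edgeR adjusted p = 0.000374). Scnn1a, the alpha subunit of the epithelial sodium channel, averaged 26.9 ± 2.08 CPM with DHT and 14.4 ± 2.04 CPM without (SD, n = 3 each). It fell by 0.89 on the log2 scale, and Clca1, a secreted regulator of chloride channels, by 0.81 (edgeR adjusted p = 0.00719 and 0.00638). Atp12a, Scnn1a and Clca1 were the called members of 26 tested pump, carbonic anhydrase and channel genes, whose median was -0.04. Over all genes tested, 0.363% were called lower. The list left out Kcnj15, Hvcn1 and the potassium channel gene Kcnf1, all of which fell. Kcnf1 changed by -0.87 on the log2 scale (edgeR adjusted p = 0.0167) and was called in 2 of the 6 fits without a library. Also left out was the carbonic anhydrase-related gene Car8, which rose (log2 1.05). Clca1 lost its call without KO minus DHT replicate 2 (edgeR adjusted p = 0.0594). Hvcn1, a voltage-gated proton channel, was at 5.72 to 8.19 CPM with DHT and 1.12 to 2.86 CPM without (log2 -1.69, SE 0.356, edgeR adjusted p = 0.0461). Hvcn1 overlaps Tctn1 on the other strand and lost its call in all 6 fits without a library (adjusted p up to 0.211).

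The remaining named falls were genes of junctions, matrix, lipids and sugars. Cldn10, a tight junction claudin also used as a marker of luminal progenitors, averaged 5.7 ± 0.544 CPM with DHT and 2.28 ± 0.516 CPM without (SD, n = 3 each; log2 -1.31, edgeR adjusted p = 0.00438). It was the sole call among 15 luminal progenitor markers, whose median was -0.03. Matn2, a matrilin of the extracellular matrix that overlaps 9430069I07Rik on the other strand, went from 15.8, 17.8 and 16.7 CPM to 5.62, 7.49 and 6.26 CPM (log2 -1.37, SE 0.126, edgeR adjusted p = 4.97e-05). The apolipoprotein gene Apoe went from 14.5, 16.3 and 15.6 CPM to 3.88, 6.7 and 6.56 CPM (log2 -1.43, SE 0.22, edgeR adjusted p = 0.00452). Neither gene's groups overlapped. B3galt5, a galactosyltransferase, averaged 7.38 ± 1.25 CPM with DHT and 2.68 ± 0.203 CPM without, a log2 change of -1.46 (SD, n = 3 each). Dtna, the dystrobrevin alpha gene, averaged 7.79 ± 0.487 and 3.21 ± 0.495 CPM, a log2 change of -1.27 (edgeR adjusted p = 0.00438 for B3galt5 and 0.00205 for Dtna).

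Peg10, an imprinted gene derived from a retrotransposon, had the largest rise among called genes. It was at 1.44, 1.19 and 1.29 CPM with DHT and at 12.7, 10.4 and 7.9 CPM without. Every library without DHT held more than 5 times the level of any with DHT, and the means differed 7.89-fold (log2 2.97, SE 0.268, edgeR adjusted p = 4.97e-05). The gene lies on the plus strand at chr6:4747306-4760517. It was the sole call among 15 tested imprinted genes, whose median was 0.08.

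The other named rises had smaller log2 changes than Peg10. Thbs2, the matricellular protein thrombospondin-2, went from 4.81, 4.86 and 4.35 CPM to 10.4, 10.8 and 14.3 CPM (log2 1.34, SE 0.148, edgeR adjusted p = 0.000223). Gas1, a co-receptor for Hedgehog ligands, went from 5.96, 4.64 and 5.23 CPM to 15.2, 12 and 13.4 CPM (log2 1.36, SE 0.156, edgeR adjusted p = 0.000326). Enpp2, the secreted enzyme autotaxin that makes lysophosphatidic acid, went from 12.3, 12.4 and 11.2 CPM to 30.4, 28 and 23.7 CPM (log2 1.19, SE 0.14, edgeR adjusted p = 0.000374). All 3 kept their groups apart and were called in every fit that left out a KO-labelled library. Itga1, the alpha-1 subunit of a collagen-binding integrin, rose 2.62-fold from 2.24 ± 0.189 CPM with DHT (SD, n = 3; edgeR adjusted p = 0.00259), but Pelo lies within it on the same strand. Mgp, a matrix protein that inhibits calcification, rose from 22.4 to 27.5 CPM with DHT to 42.6 to 59.3 CPM without (log2 0.99, SE 0.153, edgeR adjusted p = 0.00451). Tgfb3, a ligand of the TGF-beta family, rose by 0.69 on the log2 scale (edgeR adjusted p = 0.00259) and overlaps Ttll5 on the other strand.

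Of 31 tested matrix genes, Thbs2 and Tnc rose and none fell, with a median of 0.10. The list left out the matrix genes Matn2, which fell (log2 -1.37), and Mgp, which rose (log2 0.99). In this list 8 members lay wholly higher and 3 wholly lower without DHT, where the shares over all genes were 5.62% and 6.28%. Tnc, the matricellular gene tenascin C, also was the sole call among 12 mesenchymal transition genes. It rose by 0.55 on the log2 scale (edgeR adjusted p = 0.0315) and lost its call in 5 of the 6 fits without a library (adjusted p up to 0.235). Stromal cells also express several of these matrix genes. The 12 stromal markers summed to 35.3 to 44.1 CPM with DHT and to 24.5 to 33.9 CPM without, a difference carried by Dcn, which did not pass (log2 -0.57, SE 0.187, edgeR adjusted p = 0.338). The other 11 markers summed to 4.72 to 7.78 CPM with DHT and to 5.33 to 8.89 CPM without, and 5 of the 7 tested stromal markers were above 0, with a median of 0.122. The part of stromal RNA in these rises was not tested. In bulk samples, fewer cells of a type and less RNA per cell cannot be told apart.

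Cd34, a sialomucin of the cell surface found on endothelium and on some epithelial progenitors, rose from 20.1, 17 and 18.9 CPM to 45, 36.6 and 37.1 CPM (log2 1.08, SE 0.156, edgeR adjusted p = 0.0031). The 7 endothelial markers summed to 3.07 to 3.52 CPM with DHT and to 2.98 to 5.58 CPM without, and their part in the rise of Cd34 was not tested. Rgs4, a regulator of G-protein signalling, was at 2.45 to 4.35 CPM with DHT and 7.45 to 13.2 CPM without (log2 1.47, SE 0.293, edgeR adjusted p = 0.0333). Pla2g7, the enzyme that hydrolyses platelet-activating factor, was at 2.31 to 2.94 CPM with DHT and 5.28 to 10.8 CPM without (log2 1.46, SE 0.257, edgeR adjusted p = 0.0124). The highest of these values for Rgs4 and Pla2g7 came from KO minus DHT replicate 1. Without that library Pla2g7 was still called, while Rgs4 was not. Pla2g7 lost its call without any 1 of the 3 libraries with DHT, and Rgs4 in 5 of the 6 fits without a library (edgeR adjusted p up to 0.117 and 0.25).

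Car8, a carbonic anhydrase-related protein that lacks the enzyme activity, rose from 46 to 52.1 CPM with DHT to 81.5 to 124 CPM without (log2 1.05, SE 0.166, edgeR adjusted p = 0.00536). The kinesin gene Kif26b averaged 11.6 ± 0.562 CPM with DHT and 21.3 ± 4.22 CPM without (SD, n = 3 each; edgeR adjusted p = 0.0124). The flavin monooxygenase gene Fmo6 averaged 37.5 ± 3.68 and 65.8 ± 5.31 CPM (SD, n = 3 each; edgeR adjusted p = 0.0185). Vnn1, the pantetheinase vanin-1, averaged 7.29 ± 0.207 and 12.7 ± 2.18 CPM (SD, n = 3 each; edgeR adjusted p = 0.0149). The groups of these 4 genes did not overlap. Each lost its call without KO plus DHT replicate 2, where the edgeR adjusted p was 0.0506 for Car8, 0.0893 for Kif26b, 0.19 for Fmo6 and 0.137 for Vnn1. Kif26b, Fmo6 and Vnn1 also lost it without some other libraries.

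Secreted defence proteins were split. Reg3g, an antimicrobial lectin, went from 4.48, 5.71 and 4.49 CPM to 11, 15.2 and 12.1 CPM (log2 1.38, SE 0.212, edgeR adjusted p = 0.00451). Cxcl15, an epithelial chemokine, averaged 138 ± 6.52 CPM with DHT and 226 ± 27.5 CPM without (SD, n = 3 each; log2 0.71, edgeR adjusted p = 0.0149). Defb1, a defensin, averaged 18.8 ± 1.29 and 9.43 ± 1.6 CPM (SD, n = 3 each; log2 -0.99, edgeR adjusted p = 0.0207). Of 23 tested chemokine and antimicrobial genes these were the 2 rises and the 1 fall, and the median was 0.02. The list left out the chemokine gene Ccl28, which fell at a low level (log2 -2.97, edgeR adjusted p = 0.000923). Reg3g was called in all 6 fits without a library, and Cxcl15 and Defb1 in 1 of 6 each (adjusted p up to 0.13 and 0.155). The leukocyte marker Cd68, a lysosomal gene that made up most of that list's sum, averaged 47.3 and 52.4 CPM with and without DHT.

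Basal and luminal lists held no call. None of 20 basal and 11 luminal keratin, junction and adhesion markers was called, with medians of 0.09 and -0.02. Krt19 averaged 1611 ± 91.7 CPM with DHT and 1667 ± 334 CPM without, and Krt5 1638 ± 92.6 and 1961 ± 445 CPM (SD, n = 3 each). Of 24 squamous and cornified envelope genes, Sprr1a rose, from 307 to 357 CPM with DHT to 485 to 610 CPM without (log2 0.72, SE 0.15, edgeR adjusted p = 0.0455). The median of the squamous list was 0.16, and the Sprr1a call was lost in all 6 fits without a library (adjusted p up to 0.314).

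Signalling lists gave single calls or none. Apcdd1, a Wnt inhibitor that is also a Wnt target, rose by 0.49 on the log2 scale (edgeR adjusted p = 0.0487) and was the sole call among 13 Wnt targets, whose median was 0.20. That call was lost in all 6 fits without a library (adjusted p up to 0.3). Gas1 was the sole call among 8 Hedgehog genes (median 0.19). There was no call among 23 Wnt ligands and receptors (median 0.07), 14 EGF family genes (0.03), 19 MAPK output genes (0.12), 16 immediate early genes (-0.08) or 10 IGF axis genes (0.08). The IGF-binding protein gene Igfbp3 averaged 215 ± 2.48 CPM with DHT and 332 ± 65.6 CPM without and did not pass (SD, n = 3 each; edgeR adjusted p = 0.0706).

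Cell cycle and repair genes gave a single call. Of 40 cell cycle genes, 36 had a log2 change above 0, where 43.9% of all genes were below 0, and their median was 0.12. The sole call was a fall, in the ribonucleotide reductase subunit Rrm2, from 54.3, 59.5 and 61.1 CPM to 40.5, 45.8 and 40.8 CPM (log2 -0.46, SE 0.0949, edgeR adjusted p = 0.0424). That call was lost in all 6 fits without a library (adjusted p up to 0.278). Of 31 homologous recombination and Fanconi genes, the pathway of Brca1, none was called, and the median was 0.03. No call was made among 23 p53 targets (median -0.05), 28 interferon response genes (-0.06), 26 cholesterol genes (-0.06), 26 unfolded protein response genes (-0.07), 26 hypoxia and glycolysis genes (-0.08), 30 nuclear oxidative phosphorylation genes (-0.01) or 19 clock genes (-0.06). Adh1 was the sole call among 28 xenobiotic metabolism genes (-0.16).

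**Figure D3:**
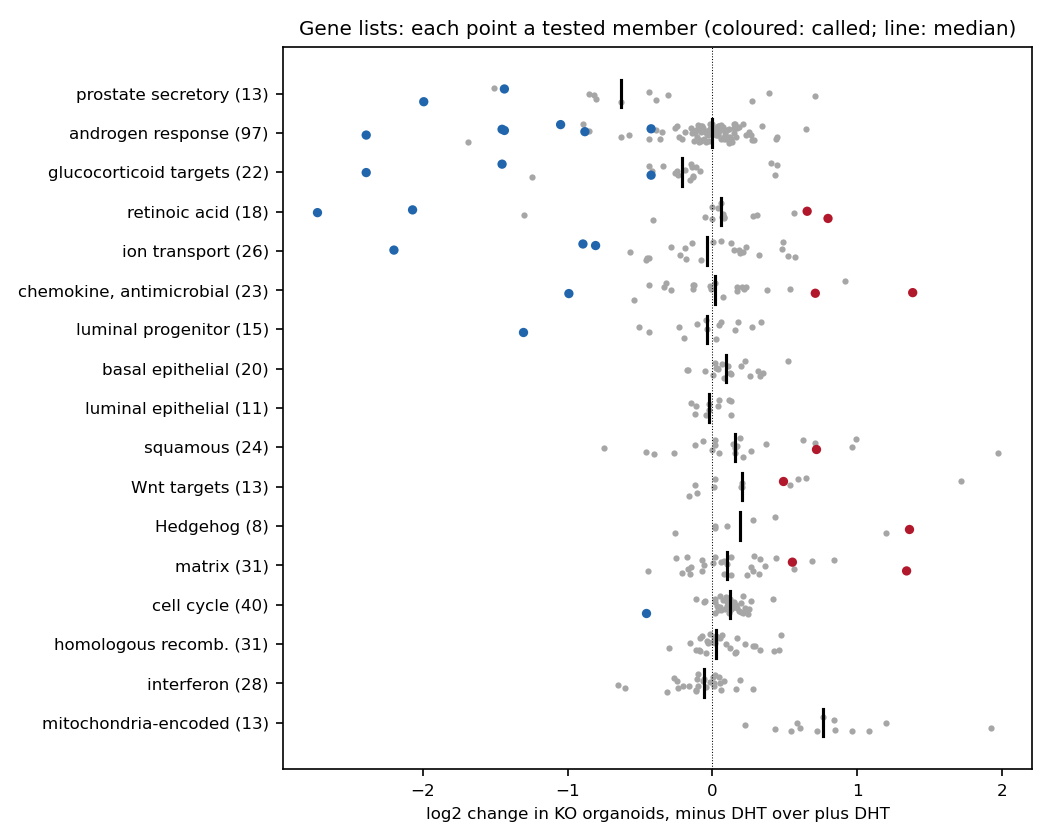
Log2 change on withdrawal in KO-labelled organoids for the tested members of 17 gene lists, 1 point per gene, with the number tested in brackets, coloured points for called genes (blue lower, red higher without DHT) and a black line at each list's median. The secretory list has the lowest median, -0.63, while the androgen response list centres at -0.003 with 6 called members on its left.

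Transcripts of the mitochondrial genome moved with a single library. The 13 tested genes all had a log2 change above 0, with a median of 0.764, and none was called. The cytochrome oxidase gene mt-Co2 was at 13170 CPM in KO minus DHT replicate 1 and at 991 to 2948 CPM in the other 5 libraries. Without that library the median of the 13 genes was -0.271, so its direction turned. The share of mitochondrial reads was 3.95% ± 0.872 with DHT and 5.6% ± 3.9 without (SD, n = 3 each; exact permutation p = 0.8, two-sided, where the smallest possible is 0.1).

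For the called genes, that library lay beside the others without DHT. The median log2 ratio to the mean level with DHT was 0.823, 0.84 and 0.83 for the 30 genes called higher in KO minus DHT replicates 1, 2 and 3. For the 56 genes called lower it was -0.96, -0.87 and -0.963. All 30 and all 56 had the direction of their call in each of the 3 libraries, which is a description, since these libraries also chose the genes. Without the library, 59 genes were called, 54 of them among the 86. With the mitochondrial share as a covariate in the fit of the 18 organoid libraries, 440 genes were called, and these included all 86.

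**Figure D4:**
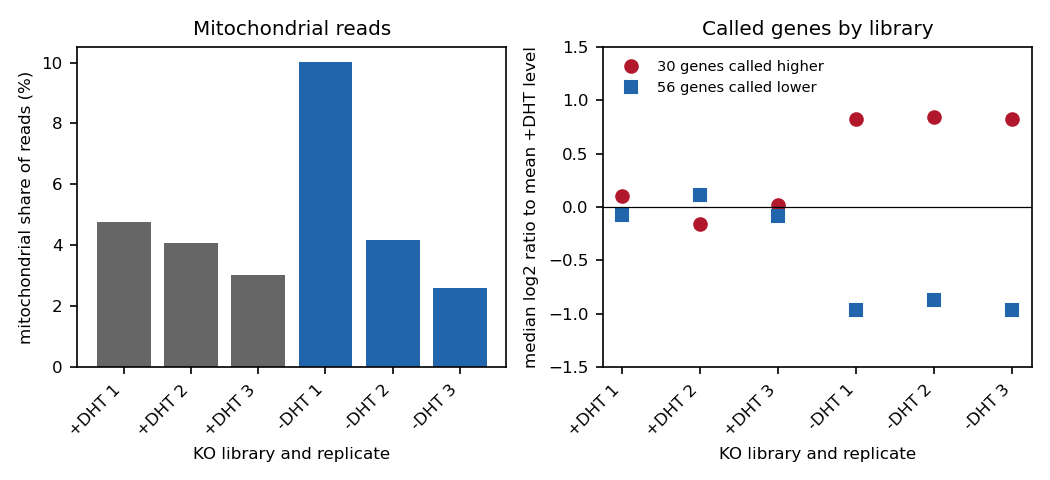
Left, share of reads from the mitochondrial genome (%) in each KO-labelled library with DHT (grey) and without (blue). Right, median log2 ratio of CPM to the mean level with DHT over the 30 genes called higher (red circles) and the 56 called lower (blue squares). KO minus DHT replicate 1 has the highest mitochondrial share, 10.0%, and its medians, 0.823 and -0.96, lie beside those of the other libraries without DHT.

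The same genes were then read in WT and HET-labelled organoids, whose libraries are in neither of the KO groups compared. The reading is not independent of the choice of genes, because all organoid libraries were fitted together. The spread behind the KO calls was thus estimated partly from WT and HET-labelled libraries. Genes with a low spread there were more easily chosen, which also favours their calls there. The shared spread bears on the calls more than on the signs. A WT and a HET-labelled library stood apart. WT plus DHT replicate 1 held 11965815 reads, 28.1% of them from Lars2, and HET minus DHT replicate 1 had 9.43% mitochondrial reads. All 30 genes that rose in KO-labelled organoids had a log2 change above 0 in WT and in HET-labelled organoids, and all 56 that fell had one below 0, where 47.1% of all genes were below 0 in WT and 45.4% in HET. Calls in the same direction were made for 26 of the 30 and 41 of the 56 in WT, where 1.3% of genes tested were called, 93 rises (0.603%) and 107 falls (0.694%). Without WT plus DHT replicate 1 they were made for 25 and 40. In HET-labelled organoids they were made for 24 of the 30 and 37 of the 56, where 0.707% were called, 53 rises (0.344%) and 56 falls (0.363%). Without HET minus DHT replicate 1, HET-labelled organoids had 25 rises and 29 falls, and these held 16 of the 30 and 29 of the 56, while all 30 and all 56 still had the same sign. Read the other way, of the 93 genes that rose in WT, 87 were above 0 in KO-labelled organoids, with a median of 0.58 against 0.992 in WT itself. All 107 that fell in WT were below 0 in KO-labelled organoids, with a median of -0.719 against -0.951. These genes were chosen by their WT values, so the WT medians are a description.

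No gene was called for KO-labelled against WT or for KO-labelled against HET-labelled organoids in edgeR, where the lowest adjusted p were 0.2 and 1. At an unadjusted p under 0.05 there were 418 genes (2.71%) and 151 genes (0.98%), and DESeq2 called 5 and 1. The 5 were Smoc2, Bst1, Adamts9, Cxcr4 and 1700047I17Rik2, and the 1 was Gm10273, named here after their values were seen. For 1700047I17Rik2 and Gm10273 DESeq2, run without the low-count filter, gave log2 differences of -48.7 and 47.8 (SE 7.26 each). Such sizes cannot be read as changes in level, so these 2 calls carry no weight.

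Smoc2, a secreted calcium-binding matrix protein, had the lowest p for KO-labelled against WT organoids. In KO-labelled organoids it was at 3.00, 3.81 and 3.13 CPM with DHT and at 2.89, 3.15 and 3.50 CPM without (log2 -0.05, SE 0.162, edgeR adjusted p = 1). In WT organoids it rose from 4.95, 5.38 and 6.51 CPM to 17.3, 12.6 and 14.3 CPM (log2 1.38, SE 0.161, edgeR adjusted p = 0.000179). The difference was -1.43 (SE 0.228, edgeR adjusted p = 0.2). DESeq2 gave -1.41 (SE 0.246, adjusted p = 0.000143) and edgeR with the mitochondrial covariate -1.47 (SE 0.198, adjusted p = 0.00989), so the call depended on the fit. In HET-labelled organoids its log2 change was 0.05 (edgeR adjusted p = 0.971).

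Of the named genes, Peg10 rose by 2.97 in KO-labelled and 4.31 in WT organoids on the log2 scale, a difference of -1.34 (SE 0.411, edgeR adjusted p = 1). Itga1 rose by 1.38 and 1.96, a difference of -0.58 (SE 0.291, edgeR adjusted p = 1), with 0.81 in HET-labelled organoids. Apoe changed by -1.43 in KO-labelled and -0.72 in WT organoids, a difference of -0.70 (SE 0.313, edgeR adjusted p = 1), and by -1.33 in HET-labelled organoids. Missing the threshold is not evidence that the response was equal.

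Only a few of the 86 genes lacked a call in both other genotypes, namely 3 rises and 11 falls. Among the rises were Sprr1a and Cybb, with log2 changes of 0.72 and 1.40 in KO-labelled, 0.17 and 0.66 in WT and 0.56 and 0.82 in HET-labelled organoids. Among the falls were Ace, the angiotensin-converting enzyme, and Myo5c, an epithelial myosin. Ace changed by -1.03, -0.33 and -0.79 and Myo5c by -0.70, -0.41 and -0.37 in KO-labelled, WT and HET-labelled organoids. Ace, Cybb and Sprr1a were called in 1, 2 and 0 of the 6 fits without a library and Myo5c in all 6. None of these differences passed in edgeR, so a call in KO-labelled organoids alone is not a difference between genotypes.

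**Figure D5:**
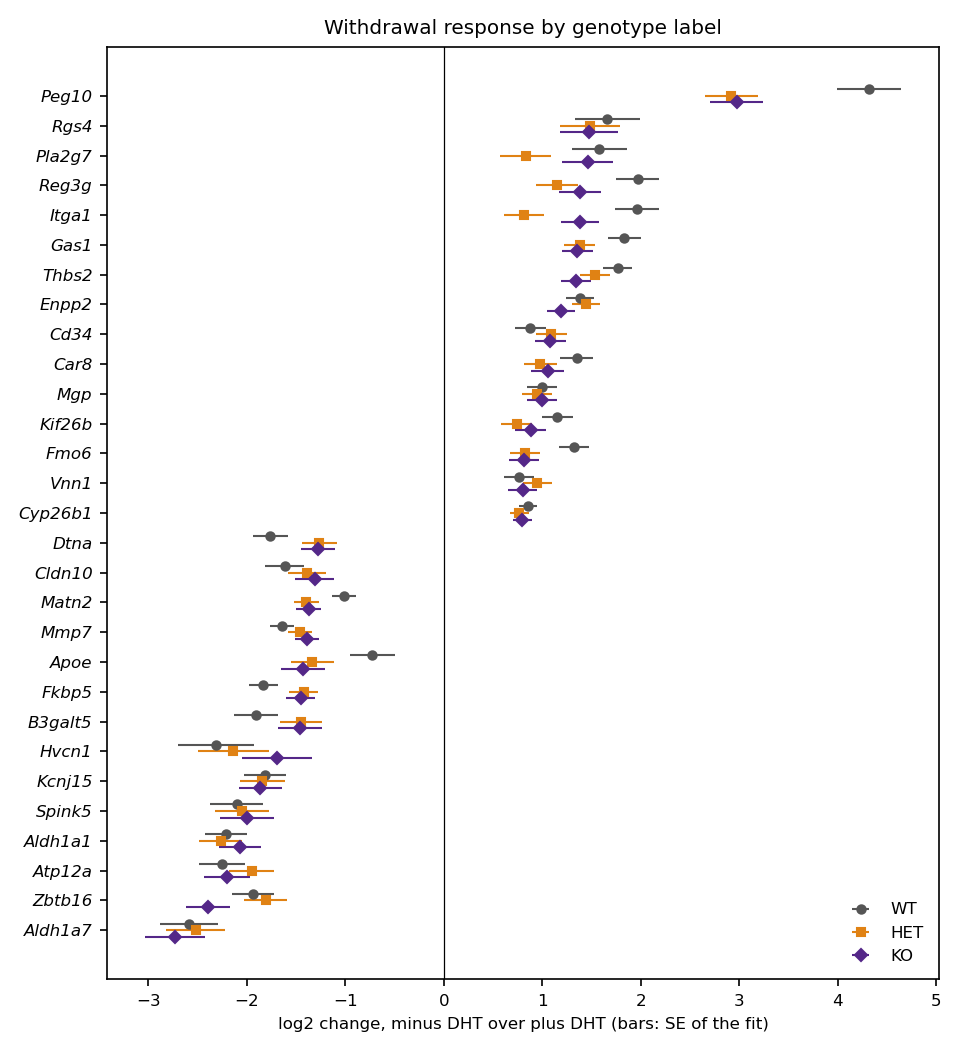
Log2 change on DHT withdrawal (horizontal axis, with the SE of the edgeR fit as bars) of the 15 named rises and 14 named falls in WT (grey circles), HET-labelled (orange squares) and KO-labelled (purple diamonds) organoids. All 29 genes lie on the same side of 0 in the 3 genotypes, and Peg10 has the widest gap, 2.97 in KO-labelled against 4.31 in WT organoids.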

How the data were processed

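Per the submitters' processing notes, the authors used Salmon 0.13.1 on the RNA reads of 24 libraries. The notes name hg38 as genome build, whereas the transcript identifiers are those of mouse, and the sources used here do not describe the index. The deposited files hold, for each of 116945 transcripts, estimated counts of reads (not whole numbers) and TPM values, per the file headers. The TPM values, as deposited, are corrected for effective length and were used only to compare levels between genes.

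Transcripts were joined to genes with GENCODE release M21 (GRCm38), in which 1000 were not found. These held 0.241% to 0.348% of reads. Estimated counts were summed per gene and rounded. The 18 organoid libraries were fitted as 6 groups in edgeR 4.0.16 (R 4.3.3), with genes of low counts removed by filterByExpr, TMM scaling and quasi-likelihood tests, leaving 15415 genes and 12 residual degrees of freedom. CPM values are on the same scaling. A gene was called at an adjusted p under 0.05. SE is the size of the log2 change divided by the square root of the F statistic. DESeq2 1.42.0 and other alternatives are described in the closing section. The fit was also run on simulated counts with known changes. These counts were drawn independently for each library from a common mean per gene. They held no shared culture, pairing or library of unusual composition, so they cannot check the fit for those features.

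The 15 largest rises and 15 largest falls were named among called genes with at least 5 CPM in a KO group and no overlap between groups, leaving out Gm and Rik symbols. Brca1, steroid receptors and members of 41 gene lists were named besides. Some genes that this rule selects are not reported here. The members and lists were chosen with earlier results of these data known. Of 880 list symbols, 7 were not matched. The 6 tissue libraries were not used.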

Additional observations from a re-analysis of the deposited data

How the results depend on the processing

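Against 86 genes called on withdrawal in KO-labelled organoids, DESeq2 called 276, the 6 KO-labelled libraries alone 12, and the fit with the mitochondrial share as covariate 440. Leaving out 1 KO-labelled library gave 42 to 59. With a replicate block within genotype the count was 47, 42 of them among the 86, and with the replicate block in the 6 KO-labelled libraries alone it was 26, 23 of them among the 86. The labels do not say whether libraries with the same replicate number belong together. Deviations of same-numbered KO-labelled libraries from their group means correlated at 0.293, 0.0275 and 0.297. KO minus DHT replicates 1 and 3 correlated best with their own number, and replicate 2 with KO plus DHT replicate 3 (0.111). The same-numbered values were -0.12, 0.179 and -0.0771 in WT and 0.000883, -0.0141 and -0.362 in HET-labelled organoids. A pairing could not be settled from these values. The count stayed within 1.5 times with DESeq2 size factors (83), no low-count filter (63), a stricter filter (93), effective length offsets (60) and protein-coding genes only (93). Chosen after seeing the data, fits without the 2 libraries over 9% mitochondrial reads gave 79, and without WT plus DHT replicate 1 as well 98. All 86 genes kept their sign in each of these fits, which was largely fixed beforehand because their groups did not overlap. For KO-labelled against WT organoids, where edgeR called 0, DESeq2 called 5, the mitochondrial covariate 2 (Smoc2 and Gm21596), and the fit without those 3 libraries 1 (Plac8), while leaving out a single library gave 0 each time. For KO-labelled against HET-labelled organoids DESeq2 called 1 against 0, Gm10273, with an implausible log2 difference of 47.8. Among its 5 calls against WT, 1700047I17Rik2 had an implausible difference too (-48.7). The cause of these differences was not tested.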

Other observations

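Several called genes outside the lists had low levels or large relative changes, and the genes given here were chosen after their values were seen. 5430419D17Rik, which overlaps Fgfr2 on the other strand, was at 26.9, 29.9 and 28.8 CPM with DHT and at 3.18, 3.46 and 4.6 CPM without (log2 -2.91, SE 0.219, edgeR adjusted p = 1.24e-05). The chemokine gene Ccl28 was at 1.65, 1.57 and 1.5 CPM and at 0.124, 0.313 and 0.138 CPM (log2 -2.97, edgeR adjusted p = 0.000923). The integrin gene Itga9 was at 1.54 to 1.79 CPM and at 0.125 to 0.514 CPM (log2 -2.32, edgeR adjusted p = 0.00403). All 3 were called in each of the 6 fits without a KO-labelled library.

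Regulators of signalling were among the other falls. Rgs2, a regulator of G-protein signalling, averaged 20.1 ± 1.62 CPM with DHT and 8.47 ± 1.86 CPM without, opposite in direction to its relative Rgs4. The small GTPase gene Rasd1 averaged 18.3 ± 1.53 and 8.1 ± 1.36 CPM (SD, n = 3 each; edgeR adjusted p = 0.00315 for Rgs2 and 0.00638 for Rasd1). Ntrk2, the receptor for brain-derived neurotrophic factor, changed by -1.51 in KO-labelled, -1.41 in WT and -0.57 in HET-labelled organoids on the log2 scale. The difference between KO-labelled and HET-labelled organoids was -0.94 (SE 0.356) and did not pass in edgeR. With DHT, Ntrk2 averaged 1.19 CPM in KO-labelled, 2.35 CPM in WT and only 0.437 CPM in HET-labelled organoids. Its call in KO-labelled organoids was lost without KO minus DHT replicate 3 (edgeR adjusted p = 0.0501).

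Among the other rises, Slc40a1, the iron exporter ferroportin, went from 36.9, 35.4 and 35 CPM to 56.1, 57.3 and 54 CPM (log2 0.64, SE 0.0999, edgeR adjusted p = 0.00505). The tight junction gene Cldn8 rose by 1.02 on the log2 scale, while Cldn10 fell by 1.31 (edgeR adjusted p = 0.0412 and 0.00438). The call for Cldn8 was lost in all 6 fits without a library (edgeR adjusted p up to 0.264), while Cldn10 was called in all 6. The keratin gene Krt20 fell by 0.87 on the log2 scale (edgeR adjusted p = 0.0455) and was called in 1 of those 6 fits.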
